A study of Mus musculus with 18 samples.

Results

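The mRNAs of 5 neuronal intermediate filament genes were followed in ribosome-associated RNA of the mouse spinal cord: Nefl, Nefm and Nefh (the light, medium and heavy neurofilament subunits), Prph (peripherin) and Ina (alpha-internexin). They were found by gene name in the 18 deposited gene tables, and all 5 were present among the 38924 genes listed in each table. All 5 passed the filter on low counts in every comparison. The RNA came from RiboTag immunoprecipitation: cells with Cre recombinase make the ribosomal protein Rpl22 with an HA tag, and an antibody to that tag brings down their ribosomes with the mRNA they carry. Every mouse was 8 weeks old, had 1 copy of the tagged allele (Rpl+/-) and had the mixed strain background B6;CASTxB6.129.

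The 4 groups differed in Chat-Cre and in Gars, which encodes glycyl-tRNA synthetase and whose dominant changes cause an inherited motor neuropathy. Cre P278KY mice (genotype Rpl+/-;Chat+/-;P278KY+/-, 3 libraries) had Cre and 1 copy of the P278KY allele of Gars, and Cre WT mice (Rpl+/-;Chat+/-;P278KY+/+, 4 libraries) had Cre and normal Gars. The negative controls had no Cre, as NoCre P278KY (Rpl+/-;Chat+/+;P278KY+/-, 6 libraries) and NoCre WT (Rpl+/-;Chat+/+;P278KY+/+, 5 libraries), so that their RNA is what the pull-down recovers without a tag. Each library came from its own mouse. Expression of Cre follows that of Chat, which encodes choline acetyltransferase, and Cre therefore acts in cholinergic interneurons and visceral motor neurons as well as in the motor neurons of skeletal muscle.

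Neurofilaments are the main fibres of large axons. Nefl forms the core on which Nefm and Nefh assemble, the long tails of Nefm and Nefh space the fibres apart, and the amount of filament sets the calibre of the axon. Alpha-internexin assembles with the 3 neurofilament subunits in central neurons and appears early in development, whereas peripherin is made mainly in neurons whose axons leave the central nervous system, such as motor neurons and sensory neurons. Changes in Nefl cause inherited axonal and demyelinating neuropathies.

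Total counts per library ran from 8177817 to 24028695 and were lowest in the NoCre libraries. Of 16 motor neuron markers, 15 were higher in Cre than in NoCre libraries of WT mice and 16 in P278KY mice at an adjusted p of 0.05 (edgeR). Of all genes tested, 28.5% were called higher in WT and 28.2% in P278KY mice. Chat itself was 3.95 and 5.19 higher on the log2 scale. Sequencing pools were inferred from index sequences and sample-sheet numbers, which put 10 libraries in a first pool and 8 in a second. All 3 Cre P278KY libraries were in pool 1, whereas Cre WT had 2 libraries in each pool. The genotype differences of the 5 genes among Cre libraries, and of some of their ratios, are therefore also given within pool 1. Those of the other genes and lists are given over both pools only. By Xist reads, every NoCre library of pool 1 came from a male and every one of pool 2 from a female, and these cannot be told apart there. The Cre WT libraries were from males in pool 1 and females in pool 2, and Cre P278KY came from 1 male and 2 females. In 3 NoCre libraries of pool 2 the protein-coding share of counts was low, at 23.0% (NoCre WT replicate 4), 33.8% (NoCre WT replicate 5) and 37.5% (NoCre P278KY replicate 6).

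The genes lie on 4 chromosomes (positions from GENCODE M21, GRCm38; the build behind the deposited tables is not given in the sources used here). Nefl (ENSMUSG00000022055, chromosome 14, 68083863 to 68089095, plus strand) and Nefm (ENSMUSG00000022054, chromosome 14, 68082590 to 68124846, minus strand) are neighbours. Nefh (ENSMUSG00000020396) is at 4938754 to 4948064 of chromosome 11 on the minus strand. Prph (ENSMUSG00000023484) is at 99055174 to 99058978 of chromosome 15 on the plus strand, and Ina (ENSMUSG00000034336) at 47014698 to 47025327 of chromosome 19 on the plus strand. The first exon of Nefl overlaps the last exon of the longer annotated Nefm transcript, Nefm-202, by 1108 bases on opposite strands (68083863 to 68084970). In 18 of 18 libraries the deposited expected counts of Nefl and Nefm summed to a whole number (within 0.01) although Nefl alone was whole in 0 of 18, so reads were divided between the 2 genes by estimation. Whether counting used strand is not given in the sources used here. The deposited Nefm length places only 0.00867% to 0.0809% of the Nefm transcripts in Nefm-202, and the tests are given also for the 2 genes summed.

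The 250 bases before the start are shown for Prph and Ina, the 2 of the 5 genes with an entry in the promoter table used (RefSeq, GRCm38.p6, plus strand). They are also the genes with the largest and the smallest enrichment of those described next. Capitals mark a TATAAA box, which begins 31 bases before the Prph start.
Prph promoter, chr15:99054924-99055173: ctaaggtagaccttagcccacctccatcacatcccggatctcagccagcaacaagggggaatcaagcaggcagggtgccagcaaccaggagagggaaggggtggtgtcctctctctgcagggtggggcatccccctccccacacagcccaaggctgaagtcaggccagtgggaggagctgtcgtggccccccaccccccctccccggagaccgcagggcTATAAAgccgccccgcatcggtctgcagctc
Ina promoter, chr19:47014431-47014680: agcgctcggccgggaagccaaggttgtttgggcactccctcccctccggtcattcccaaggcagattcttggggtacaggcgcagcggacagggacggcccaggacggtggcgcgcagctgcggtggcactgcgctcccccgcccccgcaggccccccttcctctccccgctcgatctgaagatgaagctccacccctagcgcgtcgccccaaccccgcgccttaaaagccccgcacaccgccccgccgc
The windows were searched on both strands for 5 short motifs: the TATA box, TATAAA; an ATF4-like motif, TGATGNAA; a homeodomain core, TAATTA; the CCAAT box; and the GC box, written GGGCGG. No motif overlapped another. The Prph window held the TATA box and 1 GC box, and the Ina window held 2 GC boxes and none of the others. Over 32851 mouse promoter windows of the same length, TATAAA occurred in 12.4%, TGATGNAA in 3.45%, TAATTA in 4.84%, CCAAT in 33.8% and GGGCGG in 32.7%. Both windows were GC-rich, at 65.2% for Prph and 70.8% for Ina against a median of 52.4% over all windows.

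In tagged ribosomes of WT mice the 3 neurofilament mRNAs and peripherin rose several-fold over the NoCre background, while the mRNA of alpha-internexin did not pass the test. Values are CPM, counts scaled to library size with TMM factors over all 18 libraries. Nefl was at 19351, 18728, 13617 and 11848 CPM in the 4 Cre WT libraries and at 1706, 1698, 1559, 1829 and 1694 in the 5 NoCre WT libraries. The lowest Cre WT library stood far above the highest NoCre WT library. Nefm was at 25278, 24300, 11192 and 12314 CPM in Cre WT and at 1666, 1634, 1368, 4312 and 2200 in NoCre WT, without overlap. Nefh was at 5344, 4731, 3014 and 3266 CPM against 533, 567, 484, 1315 and 719, again without overlap. In NoCre WT replicate 4, the library with the lowest protein-coding share, all 3 neurofilament mRNAs were at their group's highest.

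Peripherin showed the widest gap of the 5 in both genotypes. Prph was at 694, 560, 332 and 262 CPM in Cre WT and at 21.6, 19.6, 19.98, 29.1 and 22.2 in NoCre WT, with no value shared between the ranges. Ina was at 124, 173, 146 and 148 CPM in Cre WT and at 137, 119.8, 134, 127 and 124 in NoCre WT. The Ina ranges overlapped, so no enrichment of alpha-internexin mRNA was shown in WT mice.

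By edgeR's quasi-likelihood test, Prph was 20.6-fold higher in Cre WT than in NoCre WT (log2 4.36 ± 0.32 SE, adjusted p = 9.72e-10). Nefl was 9.36-fold higher (log2 3.23 ± 0.17 SE, adjusted p = 8.74e-12). Nefm was 8.17-fold higher (log2 3.03 ± 0.34 SE, adjusted p = 3.67e-07) and Nefh 5.65-fold higher (log2 2.50 ± 0.28 SE, adjusted p = 2.99e-07). The Ina difference was log2 0.21 ± 0.14 SE (adjusted p = 0.216). Thus 4 of the 5 genes were called, all higher, where 28.5% of the 17133 genes tested were called higher and 59.7% in either direction, and the same 4 had ranges apart, as did 43.2% of all genes. The median of the 5 was log2 3.03, and that of all genes was log2 -0.12.

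The WT enrichment was larger within pool 1 than within pool 2 for the 4 enriched genes, a difference that was not tested. Within pool 1 the log2 differences were 3.51 for Nefl, 3.93 for Nefm, 3.22 for Nefh and 4.95 for Prph, and within pool 2 they were 2.90, 2.15, 1.89 and 3.63. The 2 Cre WT libraries of pool 2 also held more oligodendrocyte RNA, with 18 markers summing to 4459 and 4817 CPM against 877 and 1375 in pool 1. The part of that RNA in the pool difference was not tested.

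In P278KY mice all 5 genes rose in the tagged pull-down, alpha-internexin included. Nefl was at 6309, 6199 and 6461 CPM in the 3 Cre P278KY libraries and at 829, 992 and 1109 (lowest, median and highest) in the 6 NoCre P278KY libraries. Prph was at 325, 274 and 473 CPM against 4.53, 8.33 and 13.6. Ina was at 266, 279 and 262 CPM against 137, 138 and 156, with the lowest Cre library well above the highest NoCre library. Nefm stood at 7023, 5494 and 8542 CPM against 748, 812 and 1597, and Nefh at 2310, 1908 and 2915 against 275, 297 and 570. None of the 5 ranges overlapped.

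Prph was 43.6-fold higher (log2 5.45 ± 0.32 SE, adjusted p = 3.25e-11, edgeR), the largest difference of the 5. Nefl was 6.45-fold higher (adjusted p = 3.25e-11), Nefm 7.42-fold (adjusted p = 6.22e-07) and Nefh 7.02-fold (adjusted p = 6.83e-08). Ina was 1.88-fold higher (log2 0.91 ± 0.15 SE, adjusted p = 2.39e-05). All 5 were called higher where 28.2% of all genes were and 59.4% were called in either direction, and all 5 had ranges apart where 56.2% of all genes had. Within pool 1 the log2 differences were 2.73 for Nefl, 3.21 for Nefm, 3.05 for Nefh, 5.58 for Prph and 0.95 for Ina. The WT and the P278KY enrichments share no libraries. Prph led and Ina came last in both, and the test of the difference between the enrichments is given with the interaction.

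**Figure D1:**
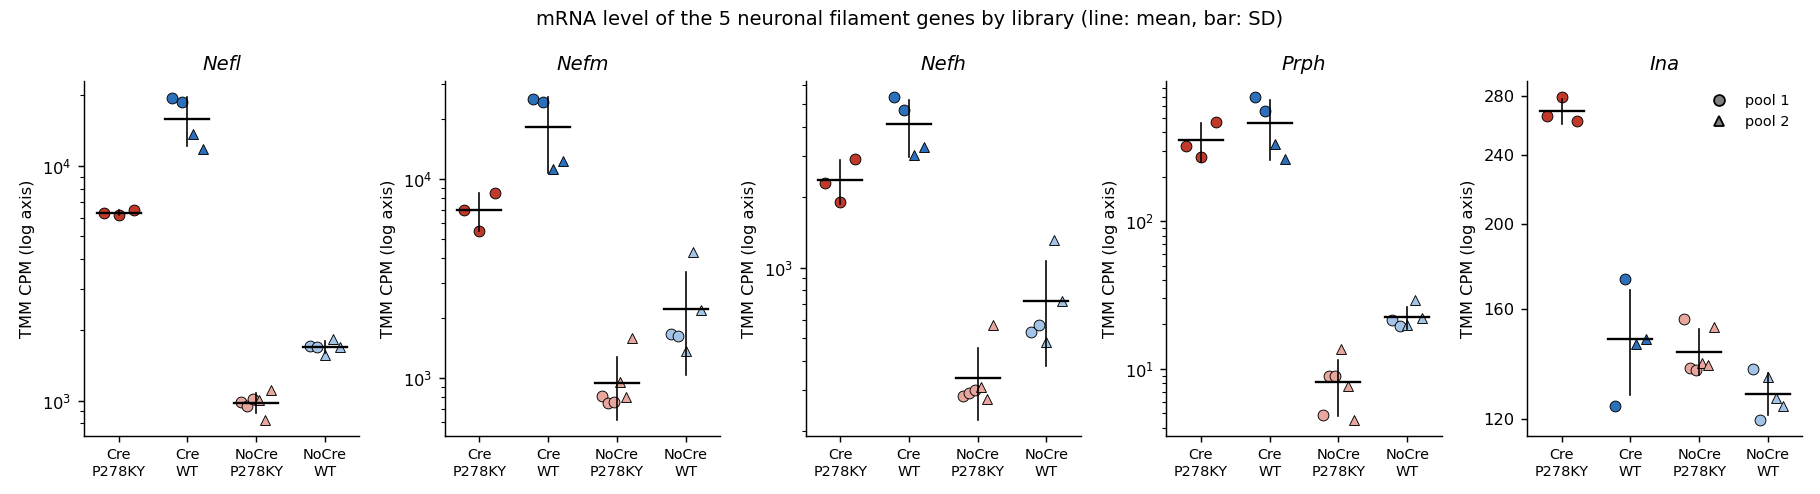
Level of each gene in each library, in TMM-scaled CPM on a logarithmic axis, for the 4 groups, with pool 1 libraries as circles and pool 2 libraries as triangles. Horizontal lines are group means and vertical lines span 1 SD either side; the 3 Cre P278KY libraries lie below all Cre WT libraries for Nefl, Nefm and Nefh, overlap them for Prph and lie above them for Ina.

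The genotypes were then compared among the 7 Cre libraries, which asks how mutant Gars changes ribosome-associated mRNA of cholinergic neurons. Neurofilament light chain mRNA fell and alpha-internexin mRNA rose in Cre P278KY, and the other 3 genes did not pass the test. The 3 mutant libraries held 6199 to 6461 CPM of Nefl, and all were below the lowest WT library at 11848. Nefl was 2.45-fold lower (log2 -1.29 ± 0.21 SE, adjusted p = 0.0103, edgeR). Ina was 1.85-fold higher (log2 0.89 ± 0.17 SE, adjusted p = 0.0227), with 3 mutant libraries at 262 to 279 CPM and 4 WT libraries at 124 to 173.

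Nefm, the subunit whose level is closest to that of Nefl, was lower by a like amount but was more variable. Its mean was 7020 ± 1524 CPM (SD, n = 3) in the mutant libraries and 18271 ± 7551 (SD, n = 4) in the WT libraries. The difference was log2 -1.34 ± 0.31 SE (adjusted p = 0.0603, edgeR). Nefh, the heavy subunit, was at 2377 ± 507 CPM (SD, n = 3) against 4089 ± 1128 (SD, n = 4), or log2 -0.75 ± 0.24 SE (adjusted p = 0.157). The ranges of Nefm and of Nefh did not overlap between the genotypes. Prph was at 357 ± 103 CPM (SD, n = 3) and 462 ± 200.2 (SD, n = 4), or log2 -0.34 ± 0.32 SE (adjusted p = 0.668), and its ranges overlapped.

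Of the 5 genes, 1 (Ina) was called higher and 1 (Nefl) lower, where 2.32% of the 14717 genes tested were called in either direction, 1.22% higher and 1.11% lower. Ranges were apart for 4 of the 5, all but Prph, where 16.7% of all genes had ranges apart. The median of the 5 was log2 -0.75 and that of all genes log2 -0.01. In bulk RNA of this kind, fewer cells of a type and less of an mRNA per cell cannot be told apart. The motor neuron markers, as 16 genes summed, ran from 1407 to 2144 CPM in Cre P278KY and from 2323 to 3558 in Cre WT. Of them 3 were called lower and none higher, with Chodl at log2 -2.53 (adjusted p = 0.0032), Ahnak2 at -1.46 (adjusted p = 0.0069) and Vipr2 at -1.34 (adjusted p = 0.0403), while Chat was at -0.17 (adjusted p = 0.811). The sum weighs the most abundant markers, and the median of the 16 was log2 -0.39. The markers did not all fall: mean CPM was higher in Cre P278KY for Slc5a7 (675 against 500), Isl1 (15.3 against 9.97), Mnx1 (14.2 against 10.7), Slit3 and Lhx3, and lower for the others. The part of the motor neuron markers in the Nefl difference was not tested. The 14 interneuron markers summed to 697 to 1135 CPM in Cre P278KY and to 433 to 657 in Cre WT (433 to 614 in pool 1). Their median was log2 0.28, with 1 called higher and none lower. Mean CPM was lower in Cre P278KY for Slc32a1 (11.5 against 14.4), Calb1 and Npy. The part of the interneuron markers in the Ina difference was not tested.

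Within pool 1, where 3 Cre P278KY libraries met 2 of Cre WT, the falls were larger and those of Nefm and Nefh were called. More genes at large were called there too, 1343 of 14753 tested against 342 of 14717 with all 7 libraries. Nefl was at log2 -1.52 (adjusted p = 0.000309, edgeR), Nefm at -1.75 (adjusted p = 0.000405) and Nefh at -1.02 (adjusted p = 0.0121). Prph was at -0.75 (adjusted p = 0.0712) and Ina at 0.93 (adjusted p = 0.0172). Among Cre libraries pool 2 held only WT, so a pool term in the fit of all 7 libraries also rests on pool 1 for genotype. Its values were therefore the same to within 0.01 for the 5 genes and are not a second check. With that term Nefm was at adjusted p = 0.000218 and Nefh at 0.00759 (edgeR), and 1677 of 14717 genes were called. With sex as a term instead, Nefl was at -1.22 (adjusted p = 0.00421, edgeR), Nefm at -1.14 (adjusted p = 0.0302) and Ina at 0.88 (adjusted p = 0.0216). Nefh, at -0.66 (adjusted p = 0.133), and Prph, at -0.14 (adjusted p = 0.85), were not called with that term. Sex was not balanced within pool 1: both Cre WT libraries were from males and 2 of the 3 Cre P278KY libraries from females. The oligodendrocyte marker sum, which was 845 to 1999 CPM in Cre P278KY, overlapped that of the 2 WT libraries in pool 1.

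The calls rested on few libraries. Leaving out any 1 of the 3 Cre P278KY libraries ended the Nefl call (adjusted p = 0.0768 to 0.0953, edgeR) and the Ina call (adjusted p = 0.0825 to 0.161), with log2 differences of -1.28 to -1.32 and 0.86 to 0.93. The Ina call was lost also without Cre WT replicate 1 (adjusted p = 0.0551) or replicate 4 (adjusted p = 0.0545), and Nefm was called without Cre WT replicate 3 (log2 -1.52, adjusted p = 0.0183). As 1 gene, Nefl and Nefm together were at log2 -1.32 ± 0.26 SE (adjusted p = 0.0279).

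**Figure D2:**
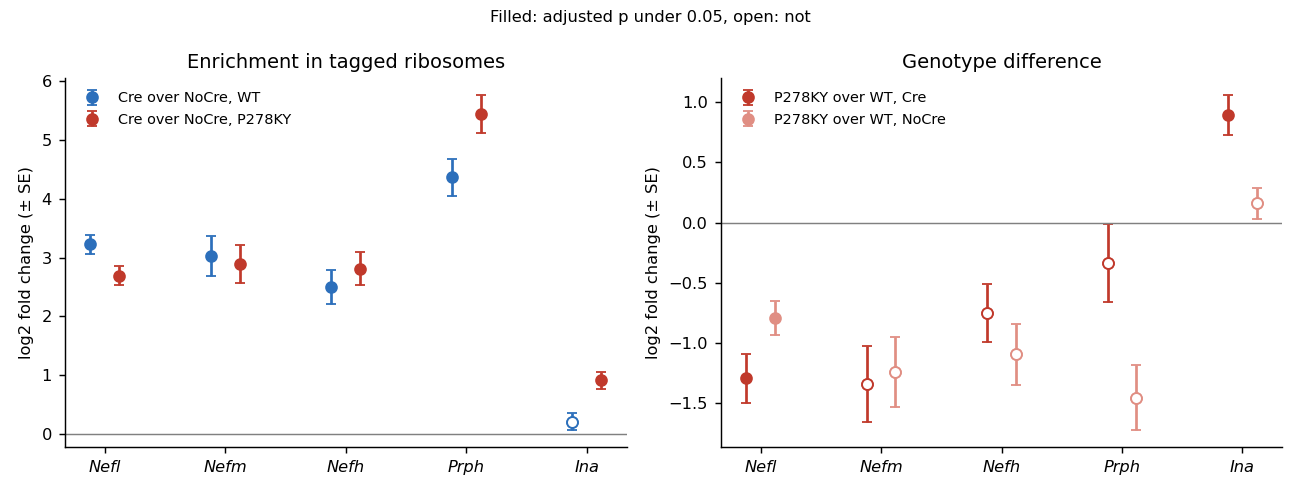
Log2 fold changes with their standard errors from edgeR for the 5 genes: left, tagged over untagged libraries of each genotype; right, P278KY over WT among Cre and among NoCre libraries. Filled points have an adjusted p under 0.05; Prph has the highest point in both enrichments, and Ina is the only gene above 0 in both genotype differences.

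**Figure D3:**
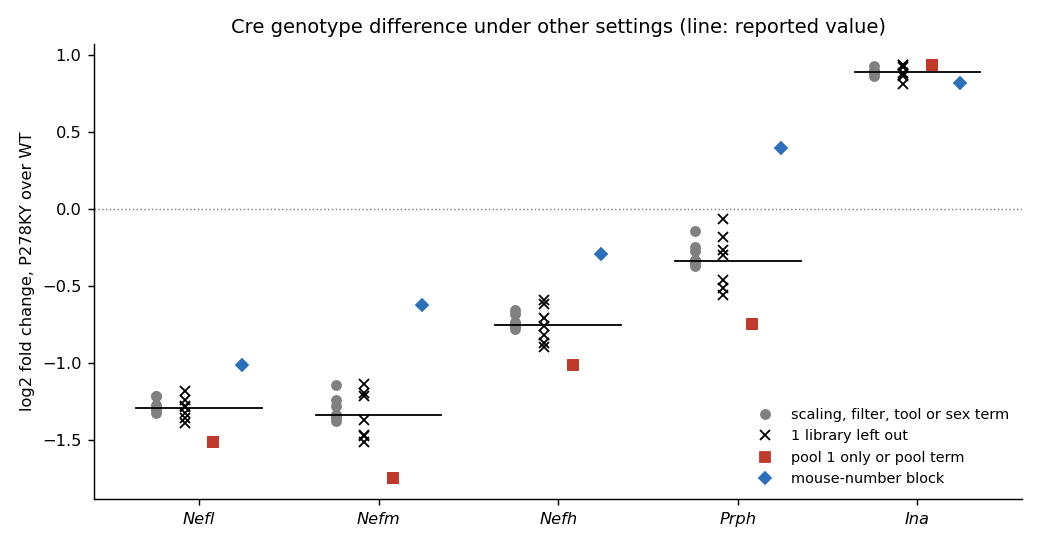
Log2 difference of Cre P278KY from Cre WT for each gene under other settings: scaling, filter, tool or sex term (circles), 1 library left out (crosses), pool 1 or a pool term (squares) and a block by mouse number (diamonds). Lines mark the reported values; every setting keeps Nefl, Nefm and Nefh below 0 and Ina above 0, while Prph turns positive, at 0.40, with the block.

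Compared per length, as TPM (transcripts scaled to a fixed total per library), the neurofilament mRNAs were among the most abundant in the tagged pull-down. Among protein-coding genes of a Cre WT library, Nefl ranked 2 to 5 and Nefm 2 to 4 by TPM. In Cre P278KY the ranks were 8 to 11 for Nefl and 6 to 11 for Nefm. The 5 genes held 3.49% to 4.42% of all counts in Cre WT, 1.76% to 1.86% in Cre P278KY, 0.333% to 0.438% in NoCre WT and 0.199% to 0.329% in NoCre P278KY. The protein-coding share of counts differed too, with means of 73.7% in Cre WT and 40.2% in NoCre WT. Of protein-coding counts alone, the 5 genes held 4.44% to 6.57% in Cre WT and 2.28% to 2.75% in Cre P278KY. In NoCre WT they held 0.80% to 1.44% of these, and in NoCre P278KY 0.44% to 0.554%.

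By mean TPM the order in Cre WT was Nefm (7418 ± 809 SD, n = 4), Nefl (6803 ± 1837), Nefh (1442 ± 262), Prph (374 ± 93.9) and Ina (70.1 ± 29.4). In Cre P278KY it was the same, with Nefm at 3110 ± 155 (SD, n = 3), Nefl at 2862 ± 712, Nefh at 874 ± 53.3, Prph at 308 ± 19.0 and Ina at 129 ± 38.8. Nefm and Nefl had overlapping ranges in all 4 groups and cannot be placed in order. Every other pair of neighbours among Cre libraries had ranges apart.

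Without Cre the last places were exchanged. In NoCre P278KY, Ina was at 73.4 ± 24.3 TPM (SD, n = 6) and Prph at 8.48 ± 5.24. In NoCre WT, Ina was at 49.7 ± 22.7 TPM (SD, n = 5) and Prph at 15.7 ± 5.34, where the ranges of the 2 genes touched but Ina was the higher in 5 of 5 libraries. Peripherin mRNA thus ranked 2216 to 8873 among protein-coding genes in NoCre libraries and 129 to 273 in Cre libraries.

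As a share of the summed TPM of the 5 genes, Ina made up 0.255% to 0.558% in Cre WT and 1.46% to 2.05% in Cre P278KY. It made up 1.77% to 3.96% in NoCre WT and 4.72% to 7.33% in NoCre P278KY, so that only the ranges of Cre P278KY and NoCre WT met. Prph made up 1.89% to 2.71% in Cre WT and 3.85% to 5.01% in Cre P278KY, and at most 1.13% in either NoCre group. Nefh made up 8.17% to 9.88% in Cre WT and 11.3% to 13.0% in Cre P278KY.

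**Figure D4:**
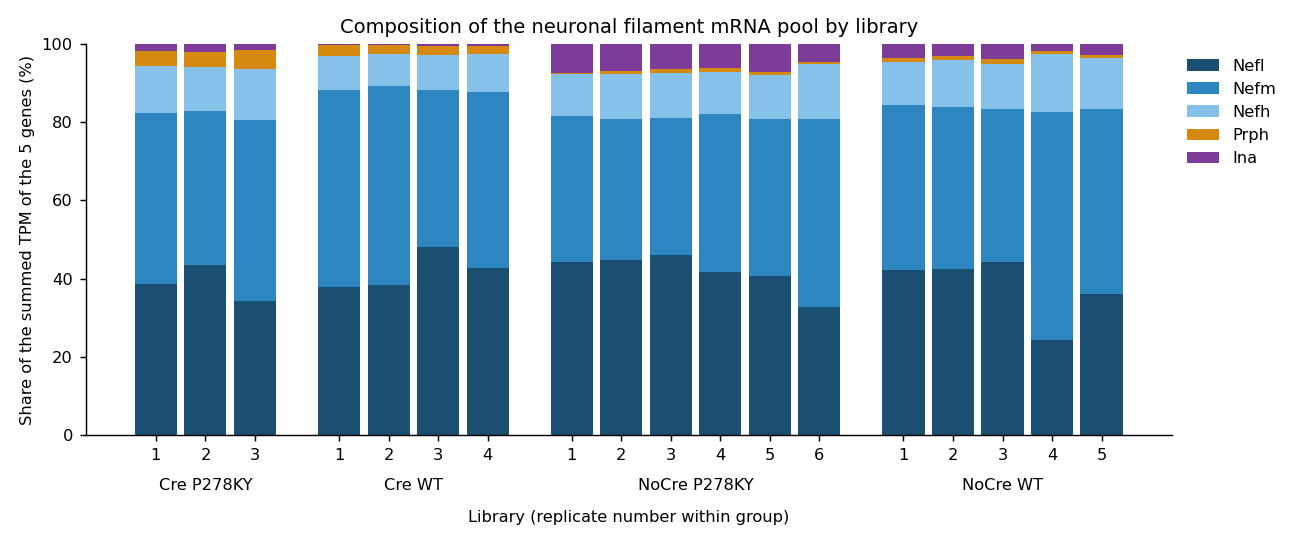
Share of each gene in the summed TPM of the 5 genes, in percent, 1 bar per library, in the order of the groups and replicate names. Nefl and Nefm fill most of each bar; the Ina segment is thinnest in Cre WT (at most 0.558%) and thickest in NoCre P278KY (at most 7.33%), and the Prph segment is widest in Cre P278KY (up to 5.01%).

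Ratios between pairs of genes within a library do not depend on depth. The 10 log2 ratios of TPM were compared in 4 pairs of groups by an exact two-sided permutation test over libraries, with Benjamini-Hochberg adjustment over the 40 tests. All 10 are formed from the same 5 genes and depend on one another, so the number that passes is not a number of separate results. Between the Cre groups, Nefl/Ina was 22.5 ± 1.17 (SD, n = 3) in P278KY and 105 ± 31.7 (SD, n = 4) in WT. On the log2 scale these were 4.49 ± 0.08 and 6.66 ± 0.41, a difference of -2.17. Every mutant library (4.41 to 4.56) was below every WT library (6.26 to 7.22).

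Among the neurofilament subunits, the ratios to Nefh were lower in every mutant library than in every WT library, while Nefl/Nefm overlapped. Nefm/Nefh was 1.83 ± 0.04 (log2, SD, n = 3) in mutant and 2.37 ± 0.23 (SD, n = 4) in WT libraries, a difference of -0.54 with ranges apart. Nefl/Nefh differed by -0.54 and Nefl/Prph by -0.996, both with ranges apart. Nefl/Nefm was -0.15 in both groups (SD 0.29 and 0.32), a difference of 0.01 (exact permutation p = 0.971). In all, 8 of the 10 ratios had ranges apart, the others being Nefl/Nefm and Prph/Ina. An exact test of 3 against 4 libraries cannot go below p = 0.0571, so none could pass. The 8 ratios each reached that smallest p (adjusted p = 0.0788). Within pool 1 the differences were -2.46 for Nefl/Ina, -0.75 for Nefl/Prph, -0.74 for Nefm/Nefh and 0.25 for Nefl/Nefm.

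Between tagged and background RNA of WT mice, 9 of the 10 ratios differed at an adjusted p of 0.0454 (exact permutation p = 0.0159 each, the smallest that 4 against 5 libraries can give), all but Nefl/Nefm. Prph/Ina was 2.48 ± 0.72 (log2, SD, n = 4) in Cre WT and -1.59 ± 0.24 (SD, n = 5) in NoCre WT. In P278KY mice 7 of 10 differed at the same adjusted p (exact permutation p = 0.0238 each, the smallest that 3 against 6 can give). The 3 that did not were the ratios among the neurofilament subunits, Nefl/Nefm (difference -0.23), Nefl/Nefh (-0.15) and Nefm/Nefh (0.08). In WT, Nefm/Nefh had differed by 0.50 and Nefl/Nefh by 0.64. Whether the WT and P278KY differences in these ratios differ from each other was not tested.

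**Figure D5:**
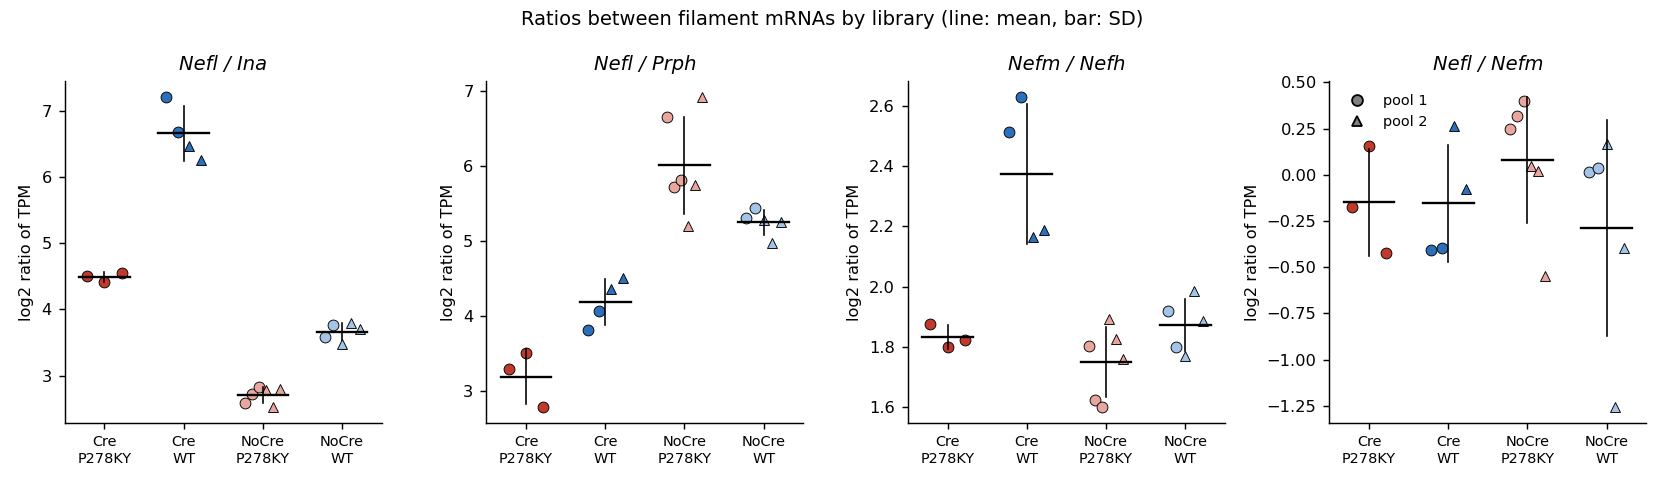
Log2 ratio of TPM within each library for 4 of the 10 pairs of genes, with group means (horizontal lines) and SDs (vertical lines), pool 1 as circles and pool 2 as triangles. Nefl/Ina separates the 4 groups (means 4.49, 6.66, 2.71 and 3.66 from left to right), whereas the group ranges of Nefl/Nefm overlap.

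In the NoCre background, which measures what the beads recover without a tag, Nefl was lower in P278KY than in WT mice too. The 6 NoCre P278KY libraries held 829 to 1109 CPM and the 5 NoCre WT libraries 1559 to 1829, without overlap. Nefl was 1.73-fold lower (log2 -0.79 ± 0.14 SE, adjusted p = 0.047, edgeR). It was 1 of only 4 genes called among 17133 (0.0233%), the others being Chodl (log2 -2.55, adjusted p = 5.94e-05), Ahnak2 (-1.52, adjusted p = 0.00062) and Chat (-1.45, adjusted p = 0.0339), which are 3 of the 16 motor neuron markers. Summed, those markers ran from 107 to 122 CPM in mutant and from 173 to 229.98 in WT mice, and their part in the Nefl difference was not tested.

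Peripherin was also without overlap in the background, where 0.724% of all genes had ranges apart and only Nefl and Prph of the 5 did. Prph was at 4.53 to 13.6 CPM in the mutant background and 19.6 to 29.1 in that of WT, or log2 -1.45 ± 0.27 SE (adjusted p = 0.0689, edgeR). Nefm was at log2 -1.24 ± 0.29 SE (adjusted p = 0.364) and Nefh at -1.09 ± 0.25 SE (adjusted p = 0.319). Ina was at 143 ± 8.64 CPM (SD, n = 6) and 128 ± 7.02 (SD, n = 5), or log2 0.16 ± 0.13 SE (adjusted p = 0.79). Within a library, the TPM ratio Nefl/Ina was 6.55 ± 0.549 (SD, n = 6) in P278KY and 12.7 ± 1.14 (SD, n = 5) in WT, with no overlap (log2 difference -0.95, exact permutation p = 0.00433, adjusted p = 0.0454). Of the 10 ratios 5 passed, which were Nefl/Prph (difference 0.76) and the ratios of the other 4 genes to Ina (-0.95 to -1.72).

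The Nefl call in the background was close to its threshold. It was lost without 9 of the 11 libraries, 1 at a time (adjusted p = 0.077 to 0.214, log2 -0.78 to -0.82, edgeR), and kept without NoCre WT replicate 2 (adjusted p = 0.0235) or NoCre P278KY replicate 6 (adjusted p = 0.0169). Within pool 1 the difference was log2 -0.76 (adjusted p = 0.155) and within pool 2 it was -0.79 (adjusted p = 0.415). Without scaling factors beyond library size it was -0.43 (adjusted p = 0.71), and the median of all genes moved to 0.35. Summed with Nefm, it was -1.03 (adjusted p = 0.164). With a block by mouse number, Nefm and Nefh were at -0.40 and -0.38 (adjusted p = 0.999 for each). Nefh was called without NoCre P278KY replicate 6 (log2 -1.35, adjusted p = 0.0352) and Prph without NoCre P278KY replicate 4 (log2 -1.66, adjusted p = 0.0126).

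None of the 5 genes passed the test of whether the genotype difference was larger in Cre than in NoCre libraries (edgeR, 18 libraries; 0.654% of 17133 genes were called). At an unadjusted p of 0.05, 3 of the 5 passed, and the share of all genes at that level is not given here. Of the 5, 1 (Ina) was called by DESeq2 and none by limma voom. Of all 17133 genes, DESeq2 called 382 and limma voom 150. The interaction was log2 0.70 ± 0.21 SE for Ina (adjusted p = 0.139) and -0.54 ± 0.23 SE for Nefl (adjusted p = 0.371). It was 1.08 ± 0.42 SE for Prph (adjusted p = 0.307), 0.31 ± 0.40 SE for Nefh (adjusted p = 0.833) and -0.14 ± 0.47 SE for Nefm (adjusted p = 0.95). Within pool 1 the interaction was log2 -0.78 for Nefl (adjusted p = 0.0767, edgeR) and -0.72 for Nefm (adjusted p = 0.143). It was -0.17 for Nefh (adjusted p = 0.781), 0.63 for Prph (adjusted p = 0.38) and 0.72 for Ina (adjusted p = 0.157). The genotype differences in Cre libraries were thus not shown to differ from those in the background.

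After the group means were subtracted, Nefm and Nefh rose and fell together across libraries. Over 18 libraries their log2 CPM deviations had Pearson's r = 0.974 and Spearman's rho = 0.955 (permutation p within groups 1e-05, the smallest the permutations can give, and 3e-05; adjusted over 10 pairs, 0.0001 and 0.0003). Without the 2 farthest libraries, NoCre WT replicate 4 and NoCre P278KY replicate 6, r was 0.956. Nefl followed them less closely, with r = 0.730 and rho = 0.783 to Nefm (permutation p = 0.0043 and 0.00177, adjusted 0.0143 and 0.0059) and r = 0.659 and rho = 0.756 to Nefh (permutation p = 0.00295 and 0.00132, adjusted 0.0143 and 0.0059). Without the 2 farthest libraries, Cre WT replicates 1 and 4, r was 0.729 and 0.683. Within pool 1 (10 libraries, centred on each group) r was 0.902 for Nefm with Nefh, with a rho of only 0.455, and 0.527 and 0.590 for Nefl with Nefm and with Nefh. Within pool 2 (8 libraries) these were 0.993, 0.727 and 0.746.

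No relation of Ina to the neurofilaments within groups passed the test. Its r was 0.003 with Nefl (permutation p = 0.995), -0.005 with Nefm (permutation p = 0.99) and -0.07 with Nefh (permutation p = 0.815), with rho of 0.00516, -0.06 and -0.20 and every adjusted p at or above 0.593. The r of Nefl with Ina moved to 0.486 without Cre WT replicates 1 and 4, and was -0.37 within pool 1 and 0.31 within pool 2. For Nefh with Ina, r was -0.47 and rho -0.81 within pool 1, against 0.23 and 0.31 within pool 2, and for Nefm with Ina r was -0.13 and 0.12. The libraries share depth and composition, and the design had foreseen these correlations as a description.

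The genes whose log2 CPM ran most like each filament gene over all 18 libraries were taken by rule, as a description. For Nefl they were Calca (alpha-CGRP, a motor neuron peptide; r = 0.985), Cpne6 (0.985) and Kcnk9 (0.984). For Prph they were Cpeb1 (r = 0.987), Rgs4 (0.985) and Tubb3, the neuronal beta-III tubulin (0.983). Nefm ran most like Necab3 (r = 0.980) and Dysf (0.978), and Nefh most like Dysf (0.985), Palm3 (0.979) and Sept9 (0.973). For Ina the values were lower, with Cacng3 (r = 0.938), Tra2a (0.907) and Rcc2 (0.905). These values include the difference between Cre and NoCre libraries.

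Among the 7 Cre libraries alone the nearest genes were others. Nefl ran most like Layn (r = 0.999), Chodl (0.998), a marker of fast motor neurons that also fell in Cre P278KY, and Plxdc1 (0.992). Nefm ran most like S100b (r = 0.995), Ankrd35 (0.994) and Impdh1 (0.989), and Nefh like Impdh1 (0.989), Pigz (0.987) and Plekhd1 (0.982). Prph ran most like Neu1 (r = 0.990), Nap1l2 (0.985) and Copb1 (0.982). Ina ran most like Smarca1 (r = 0.983), Scn2b (0.979) and Arhgef2 (0.974). With 7 libraries in 2 groups, many genes reach high values, and no test was made.

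Other intermediate filament genes were called higher or lower in the WT pull-down about as often as genes at large, of which 28.5% were called higher and 31.2% lower. Of 15 genes listed (among them the astrocyte filament Gfap, vimentin, nestin and the lamins), 12 were tested. In WT mice 3 were higher in the tagged pull-down, among them Lmna (log2 1.43, adjusted p = 4.54e-05, edgeR) and Sync (1.86, adjusted p = 0.00248), and 4 were lower, among them Nes (-2.32, adjusted p = 0.000106) and Gfap (-1.997, adjusted p = 0.00151). In P278KY mice, where 28.2% of all genes were called higher and 31.2% lower, 1 of 12 was higher (Lmna, 1.86, adjusted p = 2.39e-06) and 5 were lower, among them Vim (-2.41, adjusted p = 6.34e-05) and Gfap (-3.42, adjusted p = 7.13e-05). Between genotypes in Cre libraries none was called by edgeR, with 3 of 12 at an unadjusted p under 0.05, 2 called by DESeq2 and none by limma voom. Of all 14717 genes tested there, DESeq2 called 972 and limma voom 325. The share of all genes at an unadjusted p under 0.05 is not given here. Among the 12, the lowest adjusted p by edgeR was that of Bfsp2 (0.0518).

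Enzymes that add phosphate to neurofilament tails or remove it, a step that governs filament spacing and transport, were for the most part called higher in the tagged pull-down. Of 19 such genes 13 were higher and 2 lower in WT, where 28.5% of all genes were higher and 31.2% lower, and their median was log2 1.17. In P278KY 12 were higher and 1 lower, where 28.2% of all genes were higher and 31.2% lower, and the median was log2 1.06. Rises in WT included those of Prkaca (log2 2.00, adjusted p = 2.42e-09, edgeR), the phosphatase subunit Ppp2r2b (2.29, adjusted p = 6.41e-09) and the Cdk5 activator Cdk5r2 (2.05, adjusted p = 5.92e-07). Between genotypes in Cre libraries none of the 19 was called by edgeR. An unadjusted p under 0.05 was reached by 2 (among them Ppp2r2b at log2 -0.70, adjusted p = 0.101, edgeR), with no share of all genes given here. DESeq2 called 1 of the 19 and limma voom none, against 972 and 325 of all 14717 genes tested. The median genotype difference of the 19 was log2 -0.01, as for all genes.

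Of 20 genes that link neurofilaments to other fibres, move them or turn them over, 10 were higher and 4 lower in the WT pull-down (28.5% and 31.2% of all genes), with a median of log2 0.43. In P278KY 12 were higher and 3 lower (28.2% and 31.2% of all genes), with a median of log2 0.50. The small heat shock proteins Hspb1 (log2 4.15, adjusted p = 5.36e-09, edgeR) and Hspb8 (3.59, adjusted p = 7.47e-11), in which changes cause motor neuropathies, led these rises in WT together with the protease Capn1 (3.61, adjusted p = 2.1e-10). Between genotypes in Cre libraries 1 of 20 was called: Cryab, the alpha-B crystallin that binds intermediate filaments and is also abundant in oligodendrocytes, was lower at log2 -1.85 ± 0.17 SE (adjusted p = 0.000517). Cryab was also the 1 gene of the 20 called in the interaction, at log2 -1.63 ± 0.30 SE (adjusted p = 0.00824). The 18 oligodendrocyte markers had a median of log2 -1.53 in the genotype difference among Cre libraries. None of them was called by edgeR, and 10 had an unadjusted p under 0.05, with no share of all genes given here. DESeq2 called 4 of the 18 and limma voom none, against 972 and 325 of all 14717 genes tested. The part of these markers in the Cryab value was not tested.

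Sensory neurons also make peripherin and neurofilaments, and their markers were at low levels. The 9 of 13 listed sensory markers that passed the count filter over 18 libraries summed to 43.8 to 56.3 CPM in Cre P278KY and 7.62 to 38.8 in Cre WT. P2rx3 (log2 4.86, adjusted p = 0.0102, edgeR) and Avil (4.35, adjusted p = 0.0216) were higher in Cre P278KY, while the defining nociceptor genes Scn10a, Mrgprd and Prdm12 had 0 reads in all 3 Cre P278KY libraries. Gars itself was 1.01 higher on the log2 scale in Cre P278KY (adjusted p = 0.0219).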

How the data were processed

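RNA sequencing of anti-HA pull-downs from the spinal cord gave 1 gene table per mouse (18 mice in 4 groups, assigned by the genotype labels). Reads were aligned with Bowtie2 2.2.0 and quantified with RSEM 1.2.12, per the submitters' processing notes. A genome build was not given in the sources used here, nor a strand setting. The deposited tables hold an expected count, a TPM and a gene length for each gene, per the file headers. Between 83.0% and 87.4% of the genes in a library had whole-number expected counts, and all were rounded to whole numbers for testing. Total counts of 8177817 to 24028695 set the precision, and counting error covers only the reads.

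Counts were filtered with filterByExpr, scaled by TMM and tested with edgeR 4.0.16 (R 4.3.3; quasi-likelihood, robust, two-sided, Benjamini-Hochberg over all genes, threshold 0.05). The genotype difference among Cre libraries was fitted on those 7 libraries, and the other comparisons on all 18 with 4 group means. Standard errors came from the fold change and its F statistic. TPM, which the authors deposited, served to compare genes and form ratios. The fit was tested on simulated data. Alternatives were DESeq2 1.42.0, limma voom (limma 3.58.1), other scalings and filters, each library left out, the sequencing pool, and a block by mouse number. Terms for sex, 2 NoCre WT libraries left out together, and Nefl and Nefm summed were chosen after seeing the data. Pools were inferred from index sequences and sample-sheet numbers in the sample descriptions, and sex from Xist (female above 20 CPM).

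Besides the 5 genes, up to 4 genes per list and comparison with the smallest adjusted p could be named, with Gars and Chat as checks and the 3 genes most correlated with each member (mean log2 CPM above 3); some genes that this rule names are not reported here. The sensory markers without reads were named after their values were seen. The members and lists were chosen with earlier results of these data known. Mice sharing the number that starts their name had a mean correlation of deviations of 0.000324 over 12 pairs in different groups, against 0.00106 over 107 other pairs. This measure cannot exclude a shared effect. It was also small for pairs of the same pool (0.00352), although a pool term moved the genes called among Cre libraries from 342 to 1677. The meaning of the number is not given in the sources used here. It was not used for pairing in the main fit, and a block by it is given as an alternative.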

Additional observations from a re-analysis of the deposited data

Results flagged for a closer look

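Of 45 sets of group values checked, 4 held a library set apart from the rest of its group by an unusually wide gap, and chance alone marks about 1 in 20 such sets. All 4 concerned NoCre P278KY replicate 6, whose protein-coding share of counts was 37.5%. In that library Nefm was at 1597 CPM and Nefh at 570.2 CPM, each the highest of the 6 by far. Its log2 ratio Nefl/Nefh was the lowest of the group, at 1.21, and its log2 ratio Nefh/Ina the highest, at 1.59. Without this library the NoCre genotype difference of Nefh was log2 -1.35 (adjusted p = 0.0352, edgeR). The part of its RNA composition in these values was not tested.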

How the results depend on the processing

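The 4 enriched genes in WT and all 5 in P278KY kept their direction and call under every alternative run. Among Cre libraries Nefl kept its call in 16 of 19 alternatives, the 3 others each leaving out 1 Cre P278KY library. Of the 19, the pool term and pool 1 alone rest on the same comparison of genotypes and are not independent. With the replicate block by mouse number, Nefl was at log2 -1.02 (adjusted p = 0.00243), Nefm was called at -0.63, Nefh was at -0.30, Ina was at 0.82 and Prph turned to 0.40 (edgeR). Nefm was called also with library size only (-1.24), without a low-count filter (-1.34), by DESeq2 (-1.35), with the pool as a term or in pool 1 (-1.75) and with sex as a term (-1.14), and Nefh with the pool as a term or in pool 1 (-1.02). Ina lost its call with library size only (0.93). Leaving out 1 library, Nefl ran from -1.39 to -1.18, Nefm from -1.52 to -1.14 and Ina from 0.82 to 0.94.

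In the NoCre background Nefl lost its call with RLE factors (-0.82), library size only (-0.43), no filter (-0.75), the block (-0.58), pool 1 (-0.76), pool 2 (-0.79), sex as a term (-0.81) and without NoCre WT replicates 4 and 5 together (-0.76), and ran from -0.86 to -0.78 leaving out 1 library. By DESeq2 Nefm (-1.27) and Nefh (-1.12) were called, whereas the block brought them to -0.40 and -0.38. Prph was called without mitochondrially encoded genes (-1.48), without a filter (-1.40), with a mean CPM above 1 (-1.50) and by DESeq2 (-1.49). Leaving out 1 library, Nefh ran from -1.35 to -0.81 and Prph from -1.66 to -1.34. The interaction of Nefh turned to -0.0396 with library size only, -0.17 in pool 1 and -0.14 without NoCre WT replicates 4 and 5, that of Nefm ran from -0.45 to 0.14 leaving out 1 library, and Ina was called by DESeq2 (0.72). The causes were not tested.

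The number of genes called among Cre libraries was 342, and 148 with library size only, 972 by DESeq2, 1664 with the block, 1677 with a pool term, 1343 in pool 1, 553 with sex as a term and 95 to 324 leaving out 1 library. WT enrichment fell from 10227 to 4953 genes in pool 2. The NoCre difference had 4 genes called, and 2 with library size only, with the block, in pool 2 or without NoCre WT replicates 4 and 5, 28 by DESeq2, and 2 to 6 leaving out 1 library. The interaction had 112, and 5 with library size only, 382 by DESeq2, 405 in pool 1 and 41 to 250 leaving out 1 library. Without scaling factors the median of all genes moved to 0.20 in WT enrichment, 0.35 in the NoCre difference and -0.32 in the interaction. An interaction within pool 2 could not be fitted.

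Of the ratios, 9 passed in WT and 7 in P278KY enrichment, and 0 in each with 1 library fewer, where the smallest possible p is larger, while the NoCre comparison kept 0 to 5. Of 480 alternative ratio differences, 472 stayed within 1 SD. Nefl/Nefm, which passed in no comparison, changed sign in 6, with differences of -0.15 to 0.25 among Cre libraries and -0.43 (pool 1) to 0.25 in WT enrichment, and no other ratio did. Prph rested on 4.53 to 13.6 CPM in NoCre P278KY.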
